A study of Homo sapiens with 18 samples.

Results

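The genes described here serve the uptake, export, storage and sensing of iron in K562 cells, a human chronic myelogenous leukemia line with erythroid features. They were chosen by symbol and number 10 of the 28395 genes in the RNA-seq tables: TFRC, STEAP3, SLC11A2 and SLC25A37 (uptake and delivery), SLC40A1 (export), FTH1 and FTL (storage), and IREB2, ACO1 and FBXL5 (sensing). All 10 passed the filter on low values in each comparison. The ATAC-seq peaks of all libraries, merged where they overlapped, gave 85549 regions, of which 43 lay within 5000 bases of these genes. Each assay covered 3 libraries of V-K562 cells, which carry the empty vector, 3 of B-K562 cells, which express wtBASP1, and 3 of G-K562 cells, with BASP1-G2A, a form that lacks N-terminal myristoylation. Each line is 1 stably transfected pool kept in G-418, so an effect of the construct and a difference between pools cannot be told apart, and p-values measure the spread between libraries of a pool.

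Cells take up transferrin-bound iron through the transferrin receptor, reduce it and pass it out of the endosome, then send it to mitochondria, store it in ferritin shells or export it through ferroportin. Much of this traffic is set after transcription. When iron is scarce, the iron regulatory proteins bind a short hairpin, the iron-responsive element, which blocks translation where it lies in the 5′ untranslated part of an mRNA and protects the mRNA from decay where it lies in the 3′ part. Erythroid cells draw on the same genes to feed heme synthesis.

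The hairpins are shown first because their place in an mRNA gives the side on which the iron regulatory proteins act. A search of 19675 canonical protein-coding transcripts of GENCODE for an unpaired C, a stem and the loop letters CAGTG followed by A, C or T found the pattern outside the coding part of 108 genes (0.55%), and of 4 of the 10 members. FTH1, FTL and SLC40A1 carry 1 match each in the 5′ part and TFRC carries 4 in the 3′ part. The pattern allows no unpaired base within the stem. EPAS1 and CDC42BPA, listed below among mRNAs with the element, gave no match outside the coding part. A member without a match is therefore not shown to lack the element, and TFRC may hold more than the matches found. Each is written 5′ to 3′ in the sense of the transcript with the loop in capitals, from chr11:61967573-61967602 (FTH1, minus strand), chr19:48965335-48965364 (FTL, plus strand), chr2:189580660-189580689 (SLC40A1, minus strand) and, for TFRC A to D on the minus strand, chr3:196050978-196051007, chr3:196050574-196050603, chr3:196050509-196050538 and chr3:196050462-196050491 (GRCh38).
FTH1: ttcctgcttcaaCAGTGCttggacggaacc
FTL: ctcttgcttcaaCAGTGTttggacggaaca
SLC40A1: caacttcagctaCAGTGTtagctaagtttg
TFRC A: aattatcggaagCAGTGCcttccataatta
TFRC B: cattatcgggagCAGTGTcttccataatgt
TFRC C: ctgtatcggagaCAGTGAtctccatatgtt
TFRC D: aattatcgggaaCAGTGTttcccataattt

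The RNA-seq values are read counts divided by a size factor, with totals of 32074895 to 33229588 per library, and the spacing left by rounding puts 28914432 to 37045203 reads on genes. BASP1 itself was at 5 to 7 in the V-K562 libraries, 6294 to 6965 in the B-K562 libraries, and reached 8124 to 12538 in the G-K562 libraries. The summed value of 10 K562 markers, among them GATA1 and the globin genes, was 109139 to 123337 in V-K562, 183480 to 190012 in B-K562, with 39379 to 47141 in G-K562. Of the 3 epithelial markers, KRT5 and CDH1 were at 145 and 40 in V-K562 replicate 1 and at 0 to 5 in the other libraries, while the summed level of the list was 1418 to 1916 in V-K562, 1520 to 1610 in B-K562, with 1132 to 1382 in G-K562. Summed T cell markers were 427 to 588, 196 to 201 and 184 to 255 in V-K562, in B-K562 and in G-K562, B cell markers 111 to 130, 48 to 64 and 86 to 128, monocyte markers 4450 to 4556, 2425 to 2679 and 6401 to 7102, and fibroblast markers 1496 to 1767, 902 to 1198 and 1155 to 1278. MS4A1, a defining B cell marker, was at 0 throughout. Markers within a sum went different ways. LYZ was at 1323 to 1369 in V-K562 and 3772 to 4301 in G-K562, while CD68 was at 3084 to 3174 and 2609 to 2783, and CD14 at 13 and 12 to 20. CD3D, most of the T cell sum, was at 409 to 570 in V-K562 and 160 to 228 in G-K562, while CD3E was at 12 to 16 and 20 to 29. The part of these levels in the results was not tested.

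In B-K562 cells 5 members rose and 4 fell against V-K562 at an adjusted p of 0.05 or less, where 38.6% of all 14958 genes tested were higher and 37.2% lower. In G-K562 cells 3 rose and 5 fell, where 33.5% of 15271 genes were higher and 33.3% lower. Between the BASP1 lines, 3 were higher and 6 lower in G-K562, where 38.1% of 15521 genes were higher and 40.5% lower. Most genes tested passed, so the number of members called is not a result about them, and what follows concerns which members moved. In bulk RNA, fewer cells of a type and less RNA per cell cannot be told apart. With at least a 2-fold change, STEAP3 alone passed, higher in B-K562 (6.46% of all genes; 14.1% were lower), lower in G-K562 (10.3%; 8.81% were higher) and lower in G-K562 than in B-K562 (12.5%; 17.4% were higher). The count in G-K562 was 2 without V-K562 replicate 1 or G-K562 replicate 2, and 0 without G-K562 replicate 3. The median log2 fold change of the members was 0.06 in B-K562 (all genes 0.01), -0.11 in G-K562 (all genes 0.00) and -0.28 for G-K562 against B-K562 (all genes -0.02). The libraries of the compared lines did not overlap for 9 members in each comparison, against 78.3%, 70.2% and 81.0% of all genes. Scaling to equal upper quartiles moved the median of all genes to -0.15 in B-K562 and turned the split there to 4 higher and 5 lower, since ACO1 lost its call at 0.02 (adjusted p = 0.76) and SLC11A2 gained one at -0.21 (adjusted p = 0.0012).

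**Figure D1:**
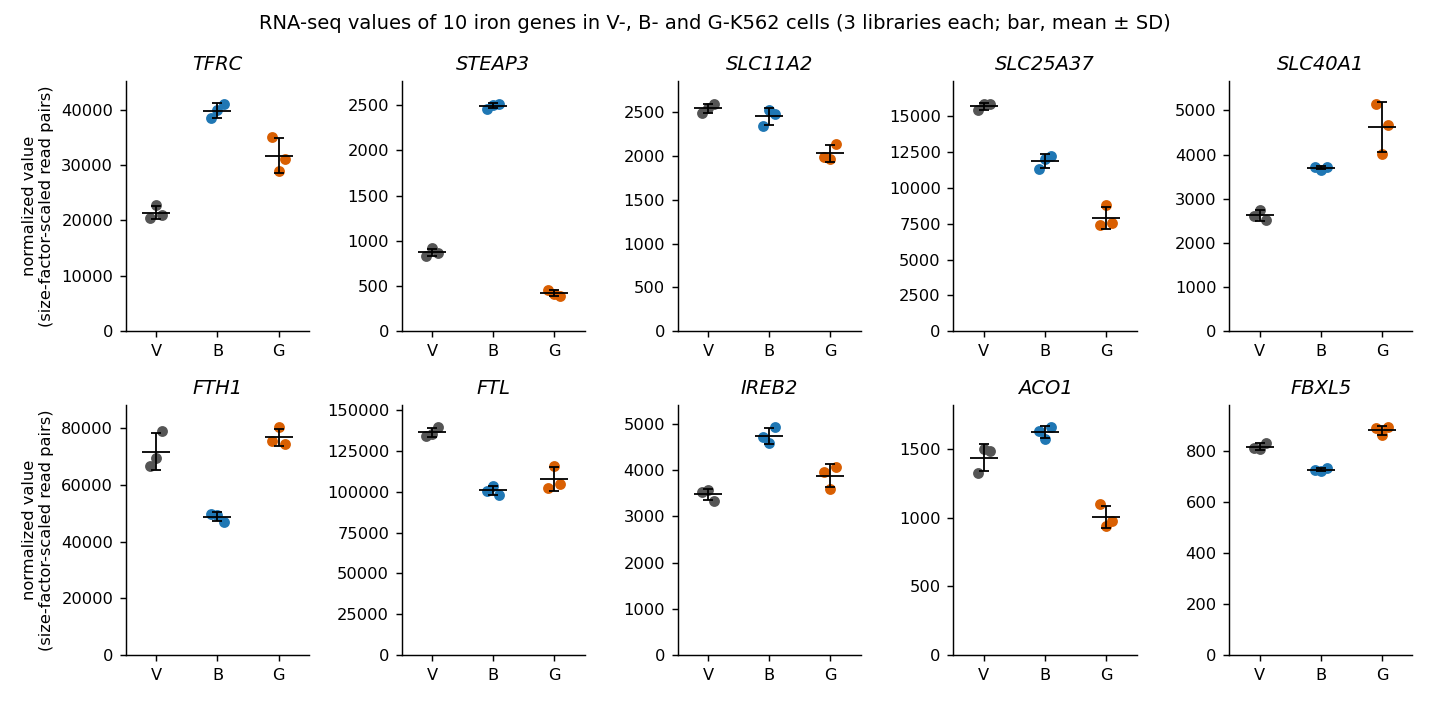
Normalized RNA-seq value of each member (vertical axis, from 0) in the 3 libraries of each line, with the mean ± SD as bars. STEAP3 was highest in B-K562 and lowest in G-K562, TFRC was above V-K562 in both BASP1 lines, and the B-K562 libraries of FTH1 were below all others.

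TFRC, which encodes the transferrin receptor (Entrez 7037, chr3:196049284-196082161, minus strand), rose in both lines. Its values were 20453, 22731 and 20919 in V-K562, 38485, 39948 and 41040 in B-K562 and 35087, 28864 and 31068 in G-K562. The 3 lines did not overlap. The increase was 1.87-fold in B-K562 (log2 0.90, SE 0.05, adjusted p = 4.2e-09 by limma-trend with Benjamini-Hochberg adjustment, as throughout) and 1.48-fold in G-K562 (log2 0.56, SE 0.08, adjusted p = 5.0e-05). G-K562 was below B-K562 by -0.33 on the log2 scale (SE 0.07, adjusted p = 4.0e-04). Over the 9 libraries, the centred log2 profiles nearest to that of TFRC were those of ARSB, LTBP1 and THADA, at Euclidean distances of 0.106, 0.154 and 0.155.

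STEAP3, the endosomal reductase that turns ferric into ferrous iron (Entrez 55240, chr2:119222731-119265652, plus strand), moved in opposite directions in the BASP1 lines. It stood at 833, 916 and 865 in V-K562, at 2459, 2506 and 2514 in B-K562 and at 457, 415 and 389 in G-K562. Every B-K562 library was above, and every G-K562 library below, all V-K562 libraries. It rose 2.86-fold in B-K562 (log2 1.52, SE 0.05, adjusted p = 3.7e-11) and fell 2.07-fold in G-K562 (log2 -1.05, SE 0.08, adjusted p = 6.2e-07). Between the BASP1 lines the difference was 5.93-fold (log2 -2.57, SE 0.07, adjusted p = 3.4e-13). The antisense gene STEAP3-AS1, which shares 593 exon bases with it, was at 0 to 3 in all libraries. The median log2 fold change of the 14 tested genes within 2000000 bases of STEAP3 was 0.09 in B-K562 and -0.14 in G-K562.

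SLC11A2, which encodes the divalent metal transporter that carries iron out of the endosome (Entrez 4891, chr12:50979783-51028335, minus strand), fell in G-K562. Values of 2494, 2554 and 2598 in V-K562 overlapped those of 2346, 2530 and 2482 in B-K562, and the G-K562 libraries were at 1993, 1962 and 2138. The change was -0.33 in G-K562 (SE 0.06, adjusted p = 3.9e-04) and -0.06 in B-K562 (95% interval -0.16 to 0.05, adjusted p = 0.31). SLC25A37, which encodes mitoferrin-1, the mitochondrial iron importer of erythroid cells (Entrez 51312, chr8:23528850-23572550, plus strand), fell in both lines. Its libraries were at 15398, 15864 and 15822 in V-K562, 11300, 12009 and 12238 in B-K562 and 7394, 8783 and 7557 in G-K562, with no overlap between lines. The decrease was 1.33-fold in B-K562 (log2 -0.41, SE 0.05, adjusted p = 2.7e-06) and 1.99-fold in G-K562 (log2 -0.99, SE 0.07, adjusted p = 2.1e-07), and G-K562 was below B-K562 by -0.59 (SE 0.06, adjusted p = 6.0e-07). The summed K562 markers given above, most of which is globin, were also lowest in G-K562 but highest in B-K562, where SLC25A37 was below V-K562. A link between the markers and SLC25A37 was not tested.

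SLC40A1, which encodes ferroportin, the exporter of cellular iron (Entrez 30061, chr2:189560590-189580811, minus strand), rose in both lines. Its values were 2611, 2747 and 2512 in V-K562, 3724, 3658 and 3718 in B-K562 and 5150, 4024 and 4675 in G-K562. The G-K562 libraries spread most and were still above all others. The increase was 1.41-fold in B-K562 (log2 0.50, SE 0.05, adjusted p = 5.2e-07) and 1.75-fold in G-K562 (log2 0.81, SE 0.08, adjusted p = 5.1e-06), and G-K562 exceeded B-K562 by 0.31 (SE 0.07, adjusted p = 0.0012). The nearest profiles over the 9 libraries were ARF3, ARMC7 and GSE1, at distances of 0.18, 0.196 and 0.201.

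FTH1, the ferritin heavy chain, whose ferroxidase loads iron into the shell (Entrez 2495, chr11:61964285-61967660, minus strand), fell in B-K562. Its values were 66719, 69348 and 79054 in V-K562, 49692, 49528 and 46957 in B-K562 and 75480, 80239 and 74498 in G-K562. The G-K562 libraries overlapped V-K562 and lay above every B-K562 library. The decrease in B-K562 was 1.47-fold (log2 -0.55, SE 0.06, adjusted p = 3.4e-06), the difference in G-K562 was 0.10 (95% interval -0.07 to 0.27, adjusted p = 0.26), and G-K562 exceeded B-K562 1.57-fold (log2 0.65, SE 0.07, adjusted p = 3.8e-07). BEST1, on the other strand, shares 179 exon bases with FTH1 and was at 370 to 510 in V-K562, 56 to 66 in B-K562, with 824 to 963 in G-K562. Whether the counting used strand is not given in the sources used here, so reads in the shared bases could not be told apart. Among the processed copies in the tables, FTH1P3 was at 77 to 95, 47 to 54 and 77 to 98 in V-K562, in B-K562 and in G-K562, FTHL18P was at 0 to 2 and FTLP10 at 0, and reads shared between ferritin genes and their copies could not be told apart. The nearest profiles to FTH1 were IER5, COMMD7 and PHF1, at distances of 0.137, 0.162 and 0.165.

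FTL, the ferritin light chain, which favors the mineral core (Entrez 2512, chr19:48965309-48966879, plus strand), fell in both lines. It was at 134099, 135572 and 139371 in V-K562, at 100736, 103415 and 98127 in B-K562 and at 102152, 115875 and 104721 in G-K562. All libraries of the BASP1 lines were below V-K562, and those of B-K562 and G-K562 overlapped. The decrease was 1.35-fold in B-K562 (log2 -0.44, SE 0.06, adjusted p = 1.1e-05) and 1.27-fold in G-K562 (log2 -0.34, SE 0.07, adjusted p = 0.0013). The difference between the BASP1 lines was 0.09 (95% interval -0.04 to 0.22, adjusted p = 0.18), and was 0.22 (adjusted p = 0.0063) with equal upper quartiles. Per base of exon, the level of FTH1 relative to FTL was 0.353, 0.363 and 0.402 in the V-K562 libraries, 0.350, 0.339 and 0.339 in B-K562 and 0.524, 0.491 and 0.504 in G-K562. This ratio was thus highest in G-K562, with a log2 difference of 0.44 against V-K562 and 0.56 against B-K562, each with a two-sided exact permutation p of 0.1, the smallest that 3 libraries against 3 allow.

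**Figure D2:**
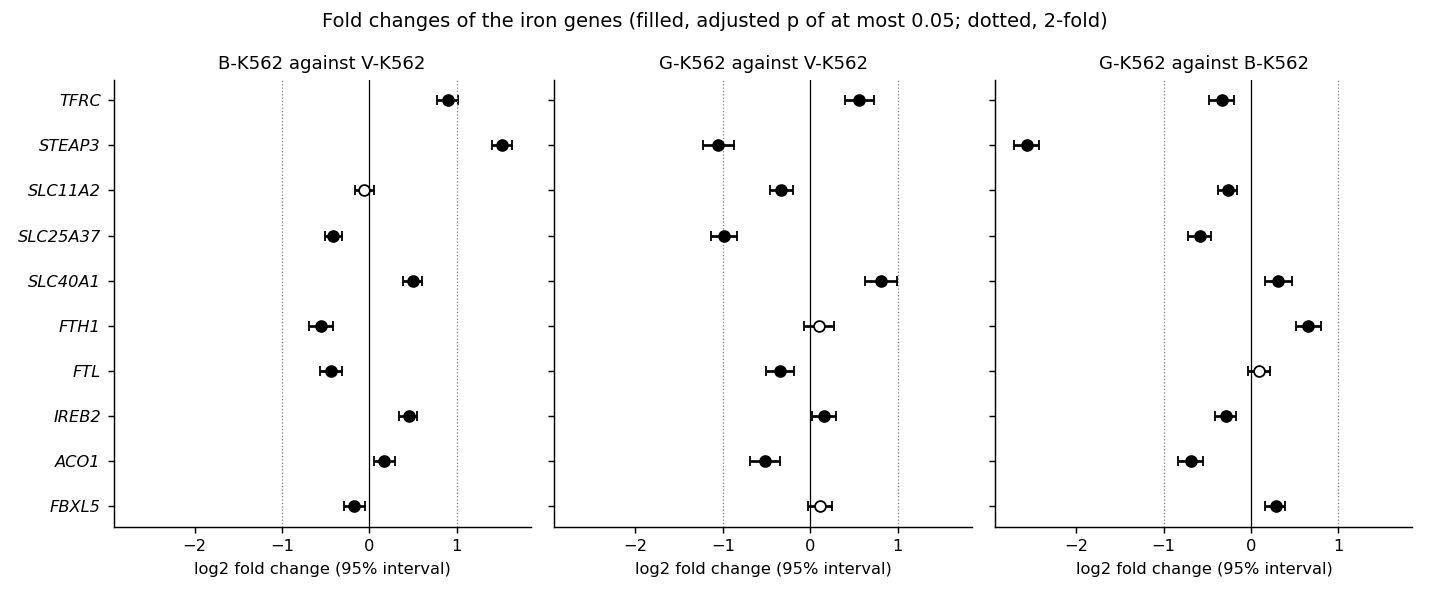
Log2 fold change of each member with its 95% interval (horizontal axis) for B-K562 against V-K562, G-K562 against V-K562 and G-K562 against B-K562; filled points passed an adjusted p-value of 0.05 and dotted lines mark a 2-fold change. STEAP3 lies at 1.52, -1.05 and -2.57 in the 3 panels, and TFRC and SLC40A1 lie to the right of 0 in both comparisons with V-K562.

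IREB2 and ACO1 encode the iron regulatory proteins: IRP2 is removed by degradation when iron is ample, and IRP1, the ACO1 product, then holds an iron-sulfur cluster and acts as an aconitase. IREB2 (Entrez 3658, chr15:78438176-78501456, plus strand) was at 3533, 3563 and 3336 in V-K562, 4715, 4584 and 4927 in B-K562 and 3972, 3604 and 4080 in G-K562. The B-K562 libraries were the highest. IREB2 rose by 0.45 on the log2 scale in B-K562 (SE 0.05, adjusted p = 1.6e-06) and by 0.16 in G-K562 (SE 0.06, adjusted p = 0.041), and G-K562 was below B-K562 by -0.29 (SE 0.05, adjusted p = 2.3e-04). The G-K562 call was lost without V-K562 replicate 1 (0.17, adjusted p = 0.054), without V-K562 replicate 2 (adjusted p = 0.068), without V-K562 replicate 3 (adjusted p = 0.13) and without G-K562 replicate 1 (adjusted p = 0.13) or replicate 3 (adjusted p = 0.17). It was also lost with no filter on low values (0.16, adjusted p = 0.061) and with equal upper quartiles (0.13, adjusted p = 0.075).

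ACO1 (Entrez 48, chr9:32384603-32450836, plus strand) was at 1323, 1500 and 1488 in V-K562, 1632, 1572 and 1656 in B-K562 and 1096, 940 and 977 in G-K562. All G-K562 libraries were below, and all B-K562 libraries above, V-K562. It fell 1.43-fold in G-K562 (log2 -0.52, SE 0.08, adjusted p = 1.2e-04), and the rise in B-K562 was 0.17 (SE 0.06, adjusted p = 0.015), which lost its call without B-K562 replicate 1 (adjusted p = 0.051) or replicate 3 (adjusted p = 0.065). G-K562 was below B-K562 by -0.69 (SE 0.07, adjusted p = 3.2e-07). The per-base ratio of ACO1 to IREB2 was 0.717 ± 0.0629 (SD, n = 3) in V-K562, 0.592 ± 0.00902 (SD, n = 3) in B-K562 and 0.448 ± 0.0317 (SD, n = 3) in G-K562. The lines did not overlap in this ratio, and each of the 3 exact permutation tests gave a two-sided p of 0.1.

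FBXL5, the iron-binding subunit of the ubiquitin ligase that marks IRP2 for degradation (Entrez 26234, chr4:15604384-15659917, minus strand), was at 810, 808 and 832 in V-K562, 727, 720 and 733 in B-K562 and 891, 861 and 892 in G-K562. These are narrow ranges that do not overlap. It fell by 0.17 on the log2 scale in B-K562 (SE 0.06, adjusted p = 0.016, and 0.061 without B-K562 replicate 2), differed by 0.11 in G-K562 (95% interval -0.03 to 0.25, adjusted p = 0.15), and in G-K562 exceeded B-K562 by 0.28 (SE 0.05, adjusted p = 3.0e-04). Its partners in the ligase, SKP1, CUL1, RBX1 and NEDD8, 4 of 4, rose in B-K562, where 38.6% of all genes did, and all 4 were lower in G-K562 than in B-K562, where 40.5% of all genes were. CUL1, the scaffold, was at 3588 to 3967 in V-K562, 7134 to 7443 in B-K562, with 4392 to 4555 in G-K562, a rise of 0.96 in B-K562 (adjusted p = 9.8e-10) and 0.25 in G-K562 (adjusted p = 0.0022). SKP1 and RBX1 rose by 0.15 and 0.24 in B-K562 (adjusted p = 0.011 and 0.0043). In G-K562 against V-K562, 1 of the 4 partners was higher and 1 lower, where 33.5% and 33.3% of all genes were. There SKP1 changed by -0.26 (adjusted p = 0.0026) and RBX1 by -0.18 (adjusted p = 0.086).

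Per kilobase of exon the storage genes stood far above the rest in every line. In V-K562 cells the level was 156541 ± 3123 (SD, n = 3) for FTL and 58346 ± 5286 for FTH1, followed by TFRC (3950 ± 222), SLC25A37 (3495 ± 57.4), SLC40A1 (752 ± 33.8), IREB2 (546 ± 19.4), ACO1 (391 ± 26.9), SLC11A2 (342 ± 7.01), FBXL5 (207 ± 3.37) and STEAP3 (184 ± 8.83). No neighbours in this order overlapped between libraries. In B-K562 cells STEAP3 (526 ± 6.25) moved up to the seventh place, between IREB2 and ACO1, again with no overlap between neighbours. In G-K562 cells ACO1 (273 ± 22.2) and SLC11A2 (273 ± 12.6) overlapped, and STEAP3 (88.7 ± 7.24) was last.

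The other genes of iron metabolism were taken from fixed lists of 81 genes, of which 72 to 74 were tested. Against V-K562, 37 were higher and 20 lower in B-K562 (median 0.18), and 23 were higher and 25 lower in G-K562 (median -0.05). The shares of all genes, against which these counts and those of each list below are to be read, were 38.6% higher and 37.2% lower in B-K562, and 33.5% higher and 33.3% lower in G-K562, so the G-K562 count over all lists is at the background. In the list of cytosolic iron-sulfur assembly, which builds the clusters of cytosolic and nuclear proteins, 10 of 11 tested genes rose in B-K562 and none fell (median 0.47), 3 rose and 4 fell in G-K562 (median 0.04), and 10 were lower in G-K562 than in B-K562. Of all genes, 38.6% were higher in B-K562 and 40.5% lower in G-K562 than in B-K562, and the G-K562 counts against V-K562 are near the background of 33.5% and 33.3%. Against V-K562, the called genes of the list with the greatest changes were NDOR1 and CIAPIN1, which pass electrons to that machinery, and CIAO1, which targets its clusters. NDOR1 rose by 0.92 in B-K562 (adjusted p = 9.9e-10) and by 0.65 in G-K562 (adjusted p = 2.9e-06). CIAPIN1 was at 1996 to 2080 in V-K562, 3697 to 3884 in B-K562, with 1783 to 1835 in G-K562, a rise of 0.88 (adjusted p = 1.4e-09) and a change of -0.17 (adjusted p = 0.016). CIAO1 rose by 0.61 in B-K562 (adjusted p = 2.1e-08) and was at 0.04 in G-K562 (adjusted p = 0.57).

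In mitochondrial iron-sulfur assembly, 12 of 18 tested genes rose and 3 fell in B-K562 (median 0.37), 5 rose and 7 fell in G-K562 (median -0.08), and against B-K562 11 were lower and 5 higher in G-K562. The shares of all genes were 38.6% higher and 37.2% lower in B-K562, and 33.5% and 33.3% in G-K562, near which the G-K562 counts of the list lie. BOLA3 changed by 0.49 in B-K562 (adjusted p = 3.0e-05) and -1.03 in G-K562 (adjusted p = 1.0e-05), and ISCA2 by 0.21 (adjusted p = 0.029) and 0.85 (adjusted p = 2.4e-06). The BOLA3 libraries were highest in B-K562, and those of ISCA2 in G-K562.

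In the hepcidin axis, the genes that govern the hormone that removes ferroportin, 2 of 10 tested genes rose and 4 fell in B-K562 (median -0.35), and 5 of 11 rose and 2 fell in G-K562 (median 0.50). With 38.6% of all genes higher and 37.2% lower in B-K562, and 33.5% and 33.3% in G-K562, these counts against V-K562 are not a result about the list. For G-K562 against B-K562, 7 of 11 were higher and 3 lower (median 1.17, all genes -0.02), and 6 were at least 2-fold higher. The shares of all genes were 38.1% higher, 40.5% lower and 17.4% at least 2-fold higher. HJV, the BMP coreceptor hemojuvelin, was at 211 to 281 in V-K562, 92 to 113 in B-K562, with 1122 to 1239 in G-K562, with changes of -1.31 (adjusted p = 5.9e-07) and 2.27 (adjusted p = 9.5e-09). ERFE, the erythroid hormone that lowers hepcidin, fell by 2.12 on the log2 scale in B-K562 (adjusted p = 1.4e-08) and was at -0.11 in G-K562 (adjusted p = 0.34). HFE, a partner of the transferrin receptor, rose by 1.67 in G-K562 (adjusted p = 7.7e-06) from 36 to 38 in V-K562 to 94 to 144, and was at -0.29 in B-K562 (adjusted p = 0.20).

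Among other genes of iron uptake and transport, 2 of 18 tested genes rose and 9 fell in B-K562 (median -0.25), and 5 of 19 rose and 8 fell in G-K562 (median -0.09). Of all genes, 38.6% were higher and 37.2% lower in B-K562, and in G-K562, where the list is not far from the background, 33.5% and 33.3%. TF, transferrin itself, was at 220 to 262 in V-K562, 174 to 179 in B-K562, with 42 to 49 in G-K562, with changes of -0.43 (adjusted p = 0.0011) and -2.38 (adjusted p = 4.2e-08). SLC39A8, a zinc and iron importer, changed by 0.87 in B-K562 (adjusted p = 1.0e-09) and -0.97 in G-K562 (adjusted p = 5.4e-08), the same pair of directions as STEAP3. MCOLN1, a cation channel of the lysosome, rose by 0.83 (adjusted p = 3.4e-07) and 0.79 (adjusted p = 9.9e-06).

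Of the ferritin loading and turnover list, 3 of 6 tested genes rose and 3 fell in B-K562 (median -0.05), and 2 rose and 1 fell in G-K562 (median -0.02). Beside shares of 38.6% and 37.2% of all genes in B-K562, and of 33.5% and 33.3% in G-K562, these counts are not a result about the list. NCOA4, the receptor that delivers ferritin to autophagy, fell by 0.73 on the log2 scale in B-K562 (adjusted p = 4.0e-07) and by 0.93 in G-K562 (adjusted p = 1.1e-06), from 16614 to 20471 in V-K562 to 11378 to 11719 and 9646 to 10203. PCBP2, an iron chaperone, and TAX1BP1, an autophagy receptor, fell by 0.45 and 0.32 in B-K562 (adjusted p = 8.9e-06 and 2.7e-05). Of 5 other mRNAs with an iron-responsive element, 4 rose and 1 fell in B-K562 (median 0.24), and 2 rose and 2 fell in G-K562 (median 0.14), on the same background. ALAS2, the erythroid enzyme that starts heme synthesis, changed by 0.69 in B-K562 (adjusted p = 1.6e-08) and -0.77 in G-K562 (adjusted p = 2.7e-06). EPAS1, which encodes HIF-2 alpha, went the other way, by -0.98 (adjusted p = 1.3e-08) and 0.56 (adjusted p = 2.8e-05), and CDC42BPA, a kinase, rose by 0.20 (adjusted p = 0.0046) and 0.72 (adjusted p = 5.3e-05).

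**Figure D3:**
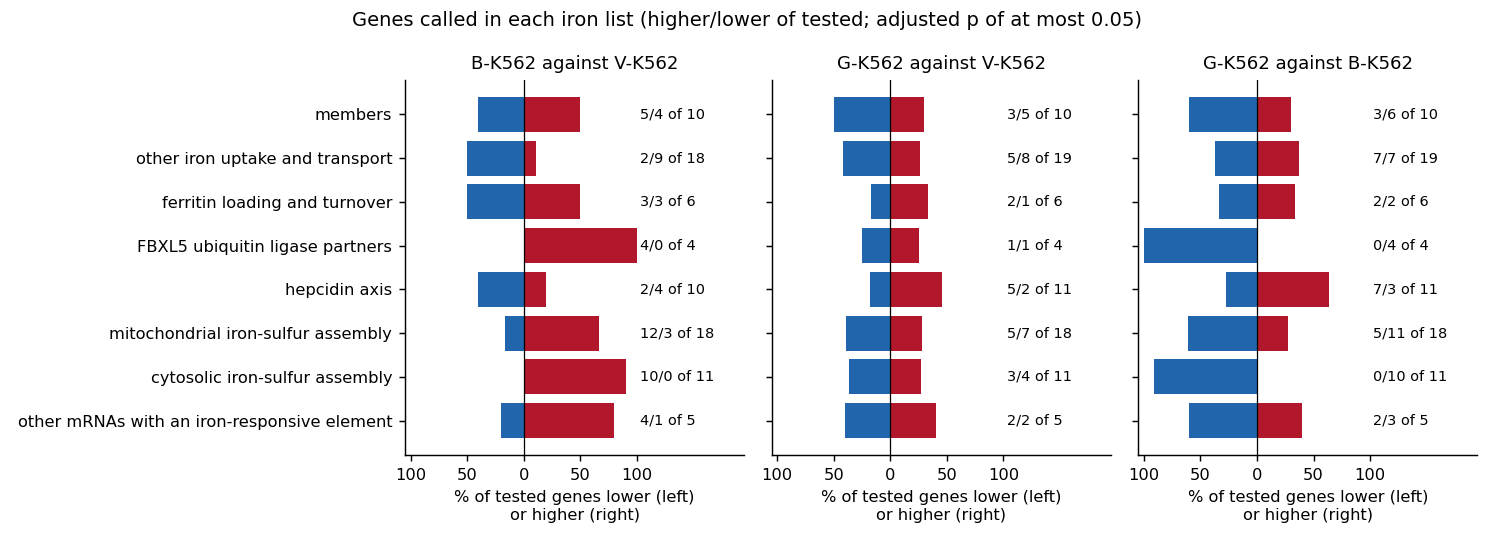
Share of the tested genes of each iron list called lower (left, blue) or higher (right, red) in each comparison, in percent, with the counts printed as higher/lower of tested. Cytosolic iron-sulfur assembly has 10 of 11 genes higher in B-K562 than in V-K562, and 10 of 11 lower in G-K562 than in B-K562.

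ATAC-seq marks open chromatin by the places where a transposase can cut. The value of a region is its highest summit pileup in a library, divided by a trimmed-mean factor (0.866 to 0.895 in V-K562, 0.978 to 1.01 in B-K562, with 1.12 to 1.18 in G-K562), and a library with no listed peak was set to a floor of 17 tags, though it is not shown to have had fewer. Peaks could also go missing within a line. An FTL region (chr19:48967563-48968467) was at 108.6 and 111.8 in V-K562 replicates 1 and 2, with no listed peak in replicate 3. A region needed 3 peaks to enter a fit, and some met this through 1 line only. Where every library of a line was at the floor, no p-value is given below, and the counts include such regions. Of 29 regions at the members that could be tested, 4 were more open and 3 less open in B-K562 than in V-K562, where 8.58% of 52204 regions were more open and 16.6% less open. In G-K562, 5 of 33 were more open and 4 less open, where the shares over 54213 regions were 15.9% and 26.0%, and without the scaling the split was 13 and 2. For G-K562 against B-K562, 6 of 34 were more open and 4 less open, where the shares over 60181 regions were 12.3% and 15.6%. The median log2 fold change of the members' regions was 0.09 in B-K562 (all regions -0.06), 0.08 in G-K562 (all regions -0.10) and 0.01 between the BASP1 lines (all regions 0.00).

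Every member had a region with a peak in all 9 libraries at a transcription start. FTL and STEAP3 were called at these start regions in B-K562, FTL and SLC40A1 in G-K562, and none was called lower against V-K562. At the STEAP3 start (chr2:119223445-119224220) the scaled pileups were 73.9, 78.2 and 95.4 in V-K562, 125.1, 155.9 and 129.9 in B-K562 and 85.1, 118.2 and 109.4 in G-K562. The region was more open in B-K562 by 0.74 on the log2 scale (SE 0.14, adjusted p = 0.0084), the line in which the transcript rose. In G-K562, where the transcript fell, the difference was 0.36 (adjusted p = 0.12, and 0.52 with adjusted p = 0.034 without G-K562 replicate 1, and 0.71 with adjusted p = 0.0087 without the scaling). At the SLC40A1 start (chr2:189580445-189581096) the pileups were 52.0, 44.7 and 31.8 in V-K562, 56.6, 40.8 and 52.1 in B-K562 and 70.4, 74.3 and 86.5 in G-K562. All G-K562 libraries were the highest, with an increase of 0.89 (SE 0.21, adjusted p = 0.012), and B-K562 overlapped V-K562 (0.24, adjusted p = 0.48).

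The FTL start (chr19:48965062-48966099), which holds the FTL hairpin printed above, was more open in both lines although the transcript was lower in both. It was at 218.3, 233.6 and 216.8 in V-K562, 304.9, 288.4 and 271.0 in B-K562 and 293.7, 271.3 and 246.0 in G-K562. The increase was 0.38 in B-K562 (SE 0.08, adjusted p = 0.012) and 0.31 in G-K562 (SE 0.09, adjusted p = 0.024), and the G-K562 call was lost without V-K562 replicate 1 (adjusted p = 0.063), V-K562 replicate 3 (adjusted p = 0.072), G-K562 replicate 1 (adjusted p = 0.068) or G-K562 replicate 2 (adjusted p = 0.052). At the FTH1 start the difference was 0.22 in B-K562 and 0.23 in G-K562 (adjusted p = 0.21 and 0.23). At the TFRC start it was 0.08 and 0.05 (adjusted p = 0.76 and 0.86), with scaled pileups of 111.8 to 183.9, 130.9 to 165.1 and 126.4 to 169.2 in V-K562, in B-K562 and in G-K562. The main start regions of SLC11A2, SLC25A37, IREB2, ACO1 and FBXL5 differed by -0.22 to 0.41 in B-K562, and by -0.44 to 0.51 in G-K562, none called.

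Among these regions, the one with the greatest fold change, which was against the floor, lay upstream of SLC25A37. The region chr8:23527642-23528221, with its summit 1084 bases before the start, was at 185.9, 172.1 and 163.5 in V-K562 and 249.3, 235.4 and 241.3 in B-K562, and no G-K562 library had a peak there. It was more open in B-K562 by 0.49 (SE 0.08, adjusted p = 0.0056). Against the floor, which stood in for every G-K562 library, the G-K562 difference was -3.27 from V-K562 and -3.75 from B-K562. Under the alternative settings these sizes ranged from -3.98 to -2.89 and from -4.47 to -3.28. The start region, 332 bases away, was at 168.0 to 190.0, 175.3 to 217.8 and 189.4 to 199.3 in V-K562, in B-K562 and in G-K562. An intron region 18948 bases after the start (chr8:23547708-23548163) was less open in B-K562, at 43.7, 43.8 and 38.9 against 86.6, 76.0 and 112.4 in V-K562 (-1.07, SE 0.18, adjusted p = 0.0058). A region at chr8:23574352-23574713 was at 19.1 to 23.7 in G-K562 against 27.7 to 46.9 in V-K562 (-0.79, adjusted p = 0.030), and this call was lost without scaling (-0.46, adjusted p = 0.16) and without V-K562 replicate 2 (adjusted p = 0.087), V-K562 replicate 3 (adjusted p = 0.088) or G-K562 replicate 1 (adjusted p = 0.088), replicate 2 (adjusted p = 0.072) or replicate 3 (adjusted p = 0.053).

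**Figure D4:**
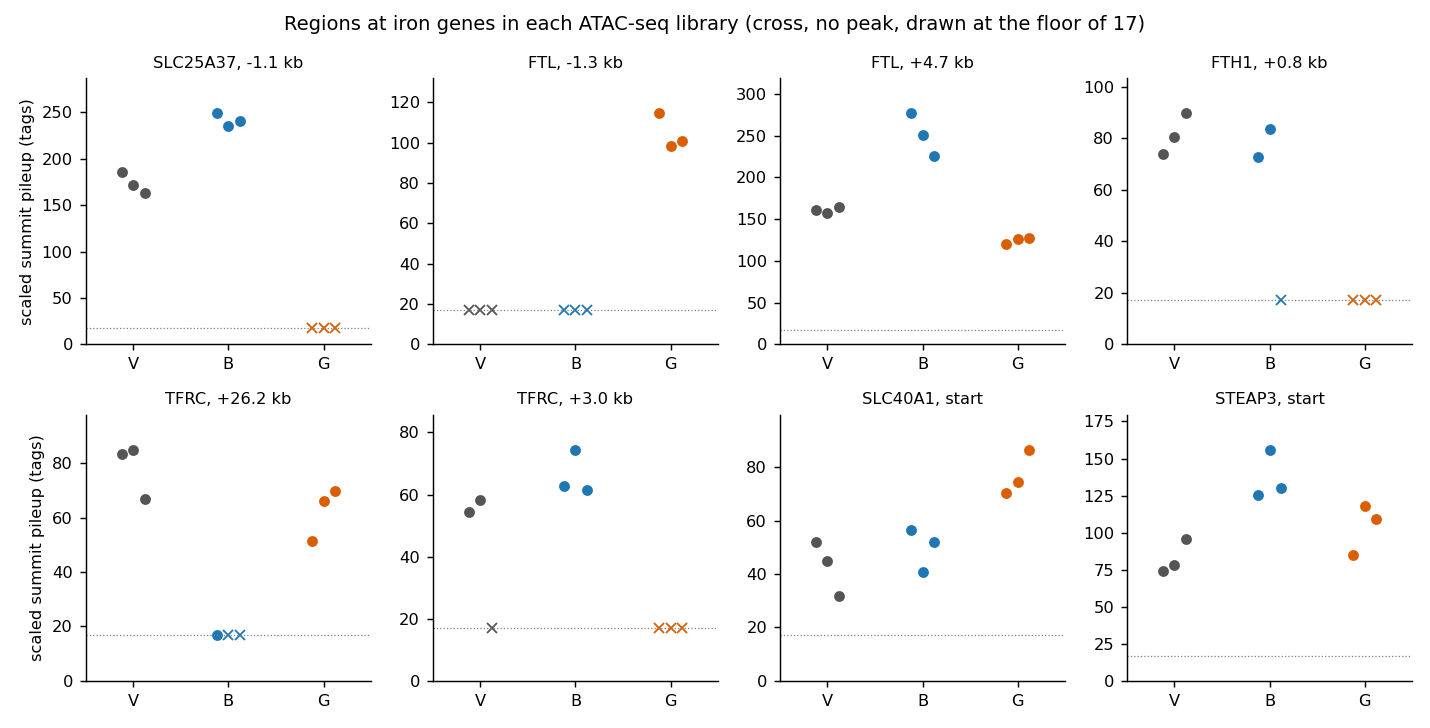
Scaled summit pileup in tags (vertical axis, from 0) of 8 regions at members in the 3 ATAC-seq libraries of each line, with crosses at the floor of 17 for libraries with no listed peak. The region 1.1 kb upstream of SLC25A37 had no peak in G-K562, and that 1.3 kb upstream of FTL had a peak in the 3 G-K562 libraries and in no other.

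FTL had a region with listed peaks in G-K562 only. No V-K562 or B-K562 library had a peak at chr19:48963867-48964141, 1341 bases before the start, where the G-K562 libraries were at 114.7, 98.5 and 100.9. The region entered the fits only through its G-K562 peaks, and the floor stood in for every other library. Against the floor the difference was 2.57 from V-K562 and 2.55 from B-K562. The whole region is printed because it holds letters bound by stress-responsive factors that act on ferritin genes. It is given from the plus strand of GRCh38 with, in capitals, TGACTCA (the AP-1 motif) joined to an overlapping match to TGACNNNGC (the antioxidant response core), both strands having been searched.
FTL upstream: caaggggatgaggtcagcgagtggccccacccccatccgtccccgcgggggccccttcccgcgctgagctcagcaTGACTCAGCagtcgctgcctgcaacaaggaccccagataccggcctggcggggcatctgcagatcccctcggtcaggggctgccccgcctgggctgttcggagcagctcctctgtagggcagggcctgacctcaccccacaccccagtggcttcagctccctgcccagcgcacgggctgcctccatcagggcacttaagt

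Of all 85549 regions, 14.4% hold TGACTCA and 13.8% hold TGACNNNGC within the 201 bases around the summit, so a match to either alone is common. The share that hold the joined site was not counted. A second FTL region 2845 bases before the start (chr19:48962281-48962683) was at 150.3 to 167.4 in G-K562 against 100.5 to 140.8 in V-K562 (0.48, adjusted p = 0.024), a call lost without V-K562 replicate 1 (adjusted p = 0.058), V-K562 replicate 2 (adjusted p = 0.061), G-K562 replicate 2 (adjusted p = 0.054) or G-K562 replicate 3 (adjusted p = 0.053). The region 4707 bases after the start (chr19:48969758-48970199), which lies in GYS1, was at 160.5, 157.6 and 164.6 in V-K562, 277.1, 250.7 and 226.0 in B-K562 and 119.9, 126.2 and 127.2 in G-K562. It was more open in B-K562 by 0.65 (SE 0.09, adjusted p = 0.0035) and less open in G-K562 by -0.34 (SE 0.08, adjusted p = 0.015). The G-K562 difference was 0.01 (adjusted p = 0.91) without the scaling, and its call was lost without G-K562 replicate 1 (adjusted p = 0.062), replicate 2 (adjusted p = 0.053) or replicate 3 (adjusted p = 0.055).

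FTH1 had a region with no listed peak in G-K562. In its intron, 850 bases after the start and 78 bases from the start region, chr11:61966678-61967064 had pileups of 73.9, 80.5 and 89.7 in V-K562, 72.5 and 83.6 in B-K562 replicates 1 and 2, and no peak in B-K562 replicate 3 or any G-K562 library. Against the floor the G-K562 difference from V-K562 was -2.18, and that of B-K562 was -0.72 (SE 0.50, adjusted p = 0.31). The bases from 61966685 to 61966884 around its summit hold the GATA motif AGATAA in 2 places, which 18.7% of all regions hold at least once, and a match to the antioxidant response core on the minus strand. The plus strand is printed with these letters in capitals because the peak was absent from every G-K562 library. GATA1, the erythroid factor, was at 8194 to 8207 in V-K562, 9329 to 9710 in B-K562, with 5347 to 5819 in G-K562. A link between GATA1 and this peak was not tested.
FTH1 intron: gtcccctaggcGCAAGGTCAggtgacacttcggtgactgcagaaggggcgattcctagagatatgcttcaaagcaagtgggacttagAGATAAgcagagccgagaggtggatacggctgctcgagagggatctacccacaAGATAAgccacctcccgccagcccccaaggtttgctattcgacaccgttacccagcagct

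A region 4302 bases before the FTH1 start (chr11:61971583-61972254) was more open in G-K562, at 241.5, 231.9 and 226.5 against 177.8, 179.9 and 180.5 in V-K562 (0.41, SE 0.07, adjusted p = 0.0032), and was at 166.8, 173.3 and 182.0 in B-K562 (-0.03, adjusted p = 0.81). FTH1 therefore had 1 region more open and 1 with no listed peak in G-K562, the line in which its transcript was not called.

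TFRC had an intron region that was weak or had no listed peak in B-K562. The region chr3:196055710-196056193, 26154 bases after the start, was at 83.2, 84.9 and 67.0 in V-K562 and 51.3, 66.2 and 69.6 in G-K562, and only B-K562 replicate 1 had a peak in that line, at 16.9. With every B-K562 library set to the floor, B-K562 differed from V-K562 by -2.03, and G-K562 exceeded B-K562 by 1.80. The difference of G-K562 from V-K562 was -0.30 (adjusted p = 0.20). The sequence is repetitive: 45.5% of its positions begin a word of 15 bases that occurs more than once in the region, and the most frequent word occurs 6 times. Only reads that map to 1 place were kept, and the part of this in the result was not tested.

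A second TFRC intron region, 3018 bases after the start (chr3:196078951-196079270), was at 54.3 and 58.1 in V-K562 replicates 1 and 2, at 62.6, 74.4 and 61.3 in B-K562, and had no peak in V-K562 replicate 3 or in G-K562. G-K562 was below B-K562 by -1.89 against the floor. At SLC40A1, the region 1198 bases before the main start (chr2:189581800-189582231) was less open in G-K562 than in B-K562, at 51.3, 28.6 and 45.8 against 79.4, 100.9 and 84.9 (-1.09, SE 0.25, adjusted p = 0.0099), while the start region was higher there (0.63, adjusted p = 0.048), a call lost without V-K562 replicate 2 and without any 1 of the B-K562 or G-K562 libraries (adjusted p = 0.055 to 0.15). In STEAP3 an intron region (chr2:119240545-119240947) had peaks of 23.5 to 36.3 in V-K562, close to the floor, and none in B-K562 (-0.60 against the floor). Its call in B-K562 was lost without any 1 of the B-K562 libraries.

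**Figure D5:**
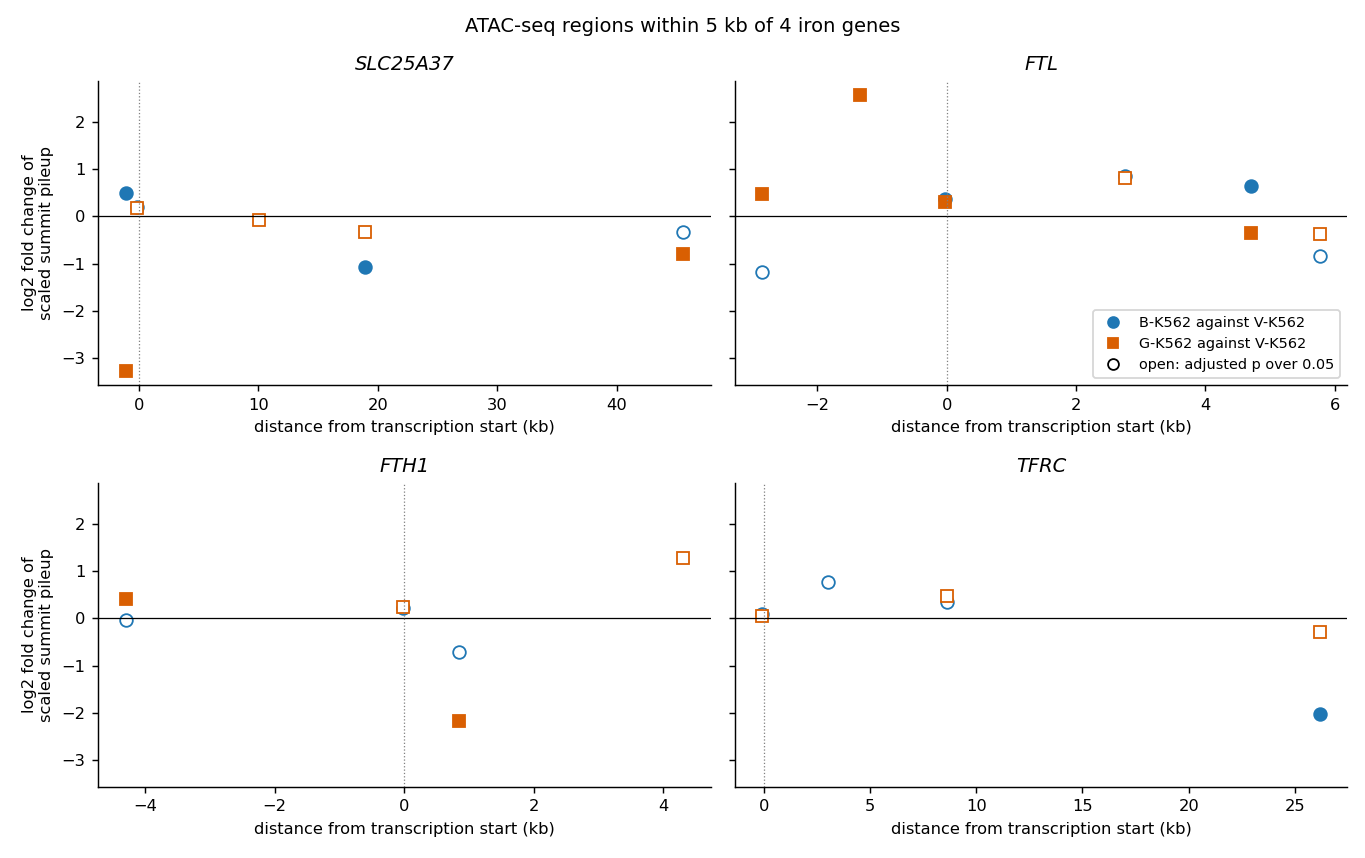
Log2 fold change of scaled summit pileup (vertical axis) of each tested region against the distance of its summit from the transcription start in kb (horizontal axis, downstream positive) for SLC25A37, FTL, FTH1 and TFRC, with circles for B-K562 and squares for G-K562 against V-K562 and filled symbols where the adjusted p was 0.05 or less. Regions at the starts lie between 0.05 and 0.38, and the filled symbols beyond 2 in size lie away from them, at SLC25A37, FTL, FTH1 and TFRC.

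RefSeq promoters (GRCh38.p14, 250 bases before to 50 after a start) were held for 8 members, with FTH1 and SLC25A37 not among them. AGATAA occurred at 1 of the SLC11A2 starts and CACGTG (the E-box) and TGACNNNGC at FBXL5, and none of the 4 motifs occurred in the promoters of TFRC, STEAP3, SLC40A1, FTL, IREB2 or ACO1. Of 35116 promoters, 10.3% held AGATAA, 7.3% CACGTG, 4.9% TGACTCA and 13.3% TGACNNNGC on either strand. Within 2000000 bases of a member, the median log2 fold change of the other tested genes ranged over the members from -0.25 to 0.44 in B-K562 and from -0.14 to 0.24 in G-K562.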

How the data were processed

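The RNA-seq and ATAC-seq libraries of the empty-vector, wtBASP1 and BASP1-G2A lines were analysed from processed files. The deposited RNA-seq score is a read count on RefSeq genes that the authors scaled with DESeq2 size factors and then rounded, after STAR alignment to GRCh38, removal of duplicates and selection of unique reads, in 1 table for each comparison with V-K562. The deposited ATAC-seq signal is the pileup of tags at each peak's summit and over the interval, from MACS2 peaks that the authors called per library after sampling to equal tags. Columns with the authors' fold changes, p-values and group means were not used.

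Log2(value + 1) was tested with limma 3.58.1 (R 4.3.3; trend in the prior variance, Benjamini-Hochberg adjustment over all genes), for genes with at least 10 in at least 3 libraries, a scale on which changes of low genes come out too small. For G-K562 against B-K562, and for all printed values, B-K562 was multiplied by 1.02, the mean ratio of V-K562 values between the tables. Log2(pileup + 1) was fitted likewise for merged regions with a peak in at least 3 libraries. The scripts were tested on simulated data. Motifs and hairpins were searched with Python 3.11.15.

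The rule for named genes took all members, at most 3 genes per list with the greatest changes among those called with a mean of at least 50, the 3 nearest profiles for TFRC, FTH1 and SLC40A1, and, per member, the start region and at most 2 other called regions. Regions called only between the BASP1 lines, the third called regions of FTL and SLC25A37, GATA1, BEST1 and STEAP3-AS1 were named after their values were seen. So were the marker genes KRT5, CDH1, MS4A1, LYZ, CD68, CD14, CD3D and CD3E. A gene that the rule names and a sequence are not reported here. Members and lists were chosen with earlier results of these data known. Positions are in GRCh38, 1-based. Alternatives (pseudocounts, filters, scalings, floors, overlaps, windows, libraries left out) are given in the closing section.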

Additional observations from a re-analysis of the deposited data

Results flagged for a closer look

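Among the 10 members and their regions, 4 results went in opposite directions in B-K562 and G-K562 cells against V-K562 cells, each with a called difference between the BASP1 lines themselves (limma-trend, fit of 9 libraries). The log2 difference of G-K562 from B-K562 was -2.57 for the STEAP3 transcript and -0.69 for the ACO1 transcript. For the region upstream of SLC25A37 it was -3.75 against the floor. No G-K562 library had a listed peak there, so that call rests on the floor. For the region downstream of FTL in GYS1 the difference was -1.0, where the G-K562 side is not lower than V-K562 without the scaling of libraries. With 3 libraries per line, no single library could be tested as standing apart within its line.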

How the results depend on the processing

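For RNA-seq, each count of members called higher or lower, other than that of members at least 2-fold lower in G-K562 (2 with equal upper quartiles), stayed within 1.5 times its value under other pseudocounts, filters, scalings, 1 joint fit and a replicate block, and with 1 library left out the higher and lower counts were 4 to 5 and 3 to 4 in B-K562, 2 to 3 and 5 to 5 in G-K562, and 3 to 3 and 6 to 6 for G-K562 against B-K562. In RNA-seq, same-numbered libraries did not deviate together more than others (correlations of deviations from -0.15 to 0.26, against -0.30 to 0.37 for different numbers). In ATAC-seq the same-numbered correlations were small but all positive (0.0070 to 0.12, against -0.084 to 0.047 for different numbers). The ATAC-seq libraries may thus be weakly paired, which the main fit did not use. With the replicate block, IREB2 in G-K562 was at 0.16 with adjusted p = 0.065, the SLC40A1 start for G-K562 against B-K562 lost its call (adjusted p = 0.069), the SLC40A1 region before it gained one in G-K562 (-0.62, adjusted p = 0.032), and regions in G-K562 numbered 6 higher and 6 lower.

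For ATAC-seq, a peak required in every library gave 1 region lower in B-K562 and 3 higher for G-K562 against B-K562, since fewer regions were tested. Without scaling, 13 were higher and 2 lower in G-K562, and the FTL region in GYS1 was at 0.01. Within 1 kb, 2 were higher and 2 lower in G-K562 and 3 were higher for G-K562 against B-K562. With 1 library left out, regions higher and lower numbered 4 to 4 and 2 to 2 in B-K562, 2 to 5 and 1 to 2 in G-K562, and 3 to 7 and 4 to 5 for G-K562 against B-K562. The higher count in G-K562 was 2 without G-K562 replicate 2 and 3 without G-K562 replicate 3, and the lower count was 1 without V-K562 replicate 2 and 2 without any other library. Without G-K562 replicate 1 or 2, 3 regions were higher than in B-K562. Regions with peaks in the 3 libraries of 1 line only could not be tested when 1 of these was left out. The depth of the ATAC-seq libraries limits peaks near the floor of 17 tags, and an RNA-seq value of 10 has a large counting error.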
